A study of Drosophila melanogaster with 4 samples.

Results

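The 1089 regions described here lie on 3L, the left arm of chromosome 3 of Drosophila melanogaster, and were enriched in chromatin immunoprecipitated with an antibody to H2Av. They were chosen by position alone: every enriched region that the authors' replicate-set list places on 3L was taken, while regions of 3LHet, the separate scaffold of 3L heterochromatin, were not. They make up 18.0% of the 6065 regions of that list. On the same arm, the list of replicate 1 holds 904 of its 5019 regions and the list of replicate 2 holds 938 of its 5037.

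The chromatin came from S2-DRSC cells, a male cell line derived from late embryos. All 4 samples, which are 2 ChIP replicates and 2 inputs, had received double-stranded RNA against H2Av, first 50 µg and, after about 4 days of growth, 200 µg. The targeted gene, CG5499 or His2Av, lies on 3R, the other arm of the same chromosome, per the RefSeq table of release 6. The antibody, number 9751, is a rabbit polyclonal raised against a peptide and purified by affinity. Values of the inputs and of cells without the RNA treatment were not analysed here, so the treatment has no comparison, and the H2Av protein that remained was not measured here. The region lists hold no expression values, so the identity of the cells was not checked against marker genes.

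H2Av is the only H2A variant of the fly and does the work that other animals divide between H2A.Z and H2A.X. As a counterpart of H2A.Z it sits in nucleosomes near the start sites of many active genes, and as a counterpart of H2A.X it is phosphorylated where DNA is broken. It has also been linked to the formation of heterochromatin, which in flies surrounds the centromeres. On 3L, low coordinates lie at the tip of the arm and high coordinates lie next to the pericentric heterochromatin.

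H2Av-enriched regions on 3L were a few kilobases wide and covered about 18.0% of the arm in each replicate. The median width was 3709.5 bp in replicate 1 and 3568 bp in replicate 2. Quartiles were 2451.5 and 6194.75 bp in replicate 1, and 2256.75 and 5872.75 bp in replicate 2. The medians thus differed by far less than the quartiles of either list. Of the 24543557 bp of 3L, 18.0% was covered in replicate 1 and 17.9% in replicate 2, with a mean of 18.0% ± 0.117 (SD, n = 2). In the replicate set the median member was 3569 bp wide and members covered 22.0% of the arm. Broad members of 10 kb or more numbered 109 in the replicate set, 68 in replicate 1 and 70 in replicate 2. They were 7.52% of the regions of replicate 1 but held 22.7% of its covered bases, and the corresponding values of replicate 2 were 7.46% and 23.1%.

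Of the 1089 members, 736 (67.6%; 95% Wilson interval 64.7 to 70.3%) overlapped a region of both replicates by at least 1 bp. The same share over all chromosomes, 3L and heterochromatic scaffolds included, was 65.7%, so the arm lay close to the background of the whole list. On single arms the share was 68.9% on 3R, 69.7% on 2L and 66.7% on X. Another 63 members overlapped replicate 1 only (5.79%; all chromosomes 6.73%) and 59 overlapped replicate 2 only (5.42%; all chromosomes 5.77%). The remaining 231 members overlapped neither (21.2%; all chromosomes 21.8%). The replicate set is the authors' result for these 2 replicates, so the lists are not independent and their overlap was not tested. The interval describes counting error only.

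Members found in both replicates were the wide ones, and they held most of the covered sequence. Their median width was 4889 bp (quartiles 3493.5 and 8059.5 bp), and they accounted for 4.81 Mb, or 89.3% of the cover of the replicate set on 3L. Members found in replicate 1 only had a median width of 1769 bp and those in replicate 2 only one of 1985 bp. Members found in neither were the narrowest, with a median of 1337 bp, and held 0.331 Mb (6.14% of the cover). The authors' score, whose formula is not given in the sources used here, set the shared members apart as well. Its median was 1.22 for members in both replicates, 0.417 for replicate 1 only, 0.434 for replicate 2 only and 0.427 for neither. Below 2 kb few members were shared, at 1 of the 114 members below 1300 bp and 14 of the 195 from 1300 to below 2000 bp. From 3 to 5 kb 262 of 275 were shared, from 5 to 10 kb 254 of 255, and from 10 kb all 109. A wide member can more easily meet a region by 1 bp, and how far this sets the trend was not tested.

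**Figure D1:**
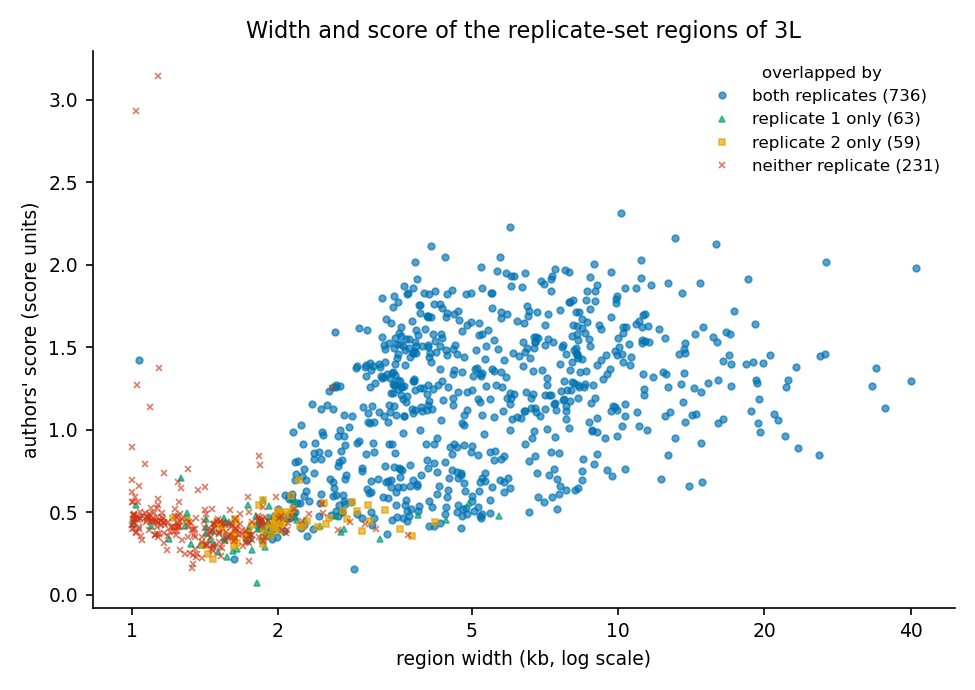
Width (kb, log scale) and authors' score of each of the 1089 replicate-set regions of 3L, with colour and symbol for the replicates that overlap it. The 736 regions in both replicates lie mostly above 2 kb, the 231 in neither lie mostly below it at scores near 0.427, and 2 narrow regions in neither stand above all others at 3.14 and 2.93.

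Many members in neither replicate were narrower than anything the replicates list on 3L. The narrowest region of either replicate on 3L was 1302 bp, while the narrowest member of the replicate set was 1001 bp. Members below 1302 bp numbered 116, and 105 of them were among the 231 in neither replicate. Of all members in neither replicate, 6 had a score of 1 or more. Besides those members, the replicate set also extended past the replicates at the edges of shared ones. The sequence it covered outside both replicates came to 0.659 Mb, of which 0.331 Mb lay in members of neither replicate and 0.328 Mb at the edges or between parts of other members.

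Wide members were often divided in the replicates. Among members in both replicates, 592 of 736 met exactly 1 region in each, 144 met 2 or more regions in at least 1 replicate, and 64 met 2 or more in both. Below 5 kb, 365 of 373 shared members met 1 region in each replicate (97.9%). The share was 72.8% (185 of 254) from 5 to 10 kb, 43.5% (40 of 92) from 10 to 20 kb and 11.8% (2 of 17) from 20 kb. Most members of 10 kb or more thus corresponded to several neighbouring regions in at least 1 replicate. A wide member also has more room for several regions, and how far this sets the trend was not tested.

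Where regions matched one to one, the replicates placed their edges close together. On 3L, 582 members met 1 region in each replicate that in turn met no other region of either list. The start differed between replicates by a median of 106 bp and the end by 105 bp, and 312 of the 582 (53.6%) agreed within 200 bp at both edges. In 47 (8.08%) at least 1 edge differed by more than 1000 bp. Widths had a Spearman correlation of 0.965 and a Pearson correlation of 0.988 across these regions, and scores had 0.954 and 0.951. These regions share their libraries, so no test was made of the correlations. The score was higher in replicate 2 by a median of 0.04 with an SD of 0.14 across regions. Medians of these regions were 3777.5 bp in replicate 1, 3754 bp in replicate 2 and 4209 bp in the replicate set, which was wider than both replicates in 532 of the 582.

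**Figure D2:**
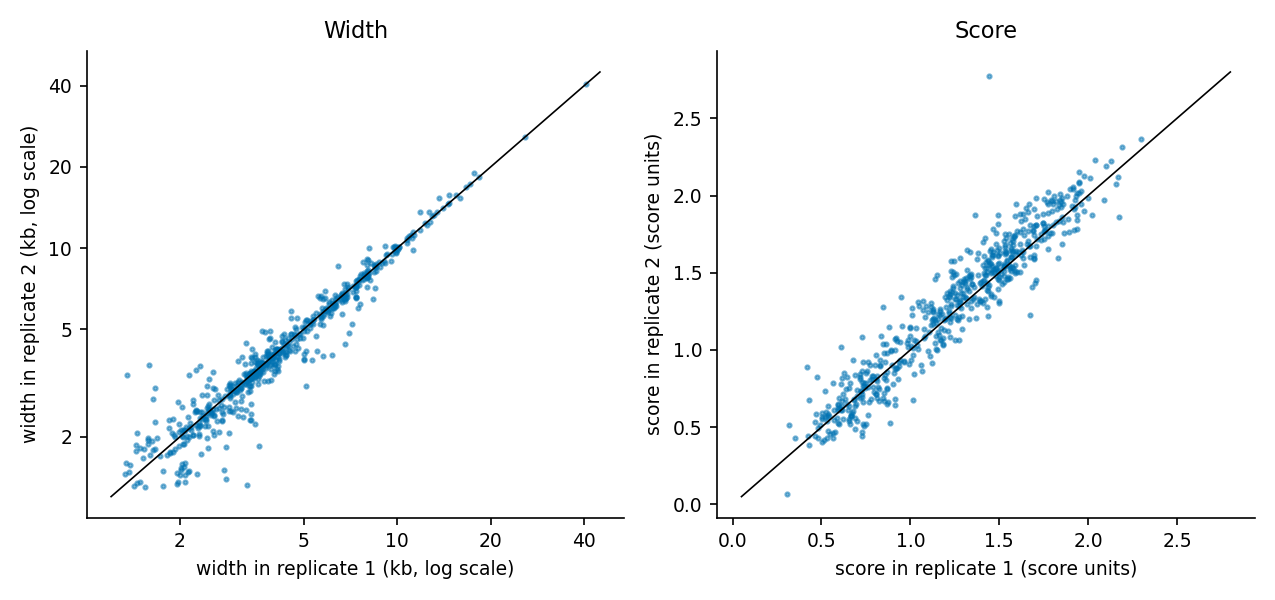
Width (kb, log scales) and score of the 582 one-to-one regions of 3L in replicate 1 (horizontal) and replicate 2 (vertical), 1 point per region, with the line of equality. Points follow the line over the whole range, with the widest region at 40587 and 40586 bp and 1 region far above it in score, at 1.44 and 2.78.

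Counted in the other direction, 832 of the 904 regions of replicate 1 (92.0%) overlapped a region of replicate 2, and 862 of the 938 of replicate 2 (91.9%) overlapped a region of replicate 1. These shares were computed for 3L alone and not for the whole lists, so neither is called particular to the arm. Unshared regions were narrow: the 72 of replicate 1 measured 1491.5 bp at the median, against 3958.5 bp for its shared regions, and the 76 of replicate 2 measured 1544 bp, against 3759.5 bp. The replicates had 4.05 Mb of 3L in common, which is 91.5% of the cover of replicate 1 and 92.4% of that of replicate 2.

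From tip to centromere, H2Av cover rose and fell over short distances. In 246 windows of 100 kb (the last one 43557 bp long), the mean cover of the 2 replicates ran from 0% to 80.5%, with a median of 14.3% and quartiles of 2.92% and 28.2%. The 62 windows with the highest mean cover held 59.9% of the covered bases of replicate 1 and 59.6% of those of replicate 2. The replicates differed by a median of 0.781 percentage points per window and by at most 9.99. Across the 246 windows their cover had a Spearman correlation of 0.994 and a Pearson correlation of 0.994. Neighbouring windows resembled each other less, with a Pearson correlation of 0.287 in replicate 1 and 0.286 in replicate 2 over 245 pairs. In 53 of these pairs (21.6%) the cover changed by 25 points or more in the same direction in both replicates. An example is the window from 8000001, covered to 4.11% and 4.12%, next to that from 8100001, covered to 74.2% and 71.6%.

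**Figure D3:**
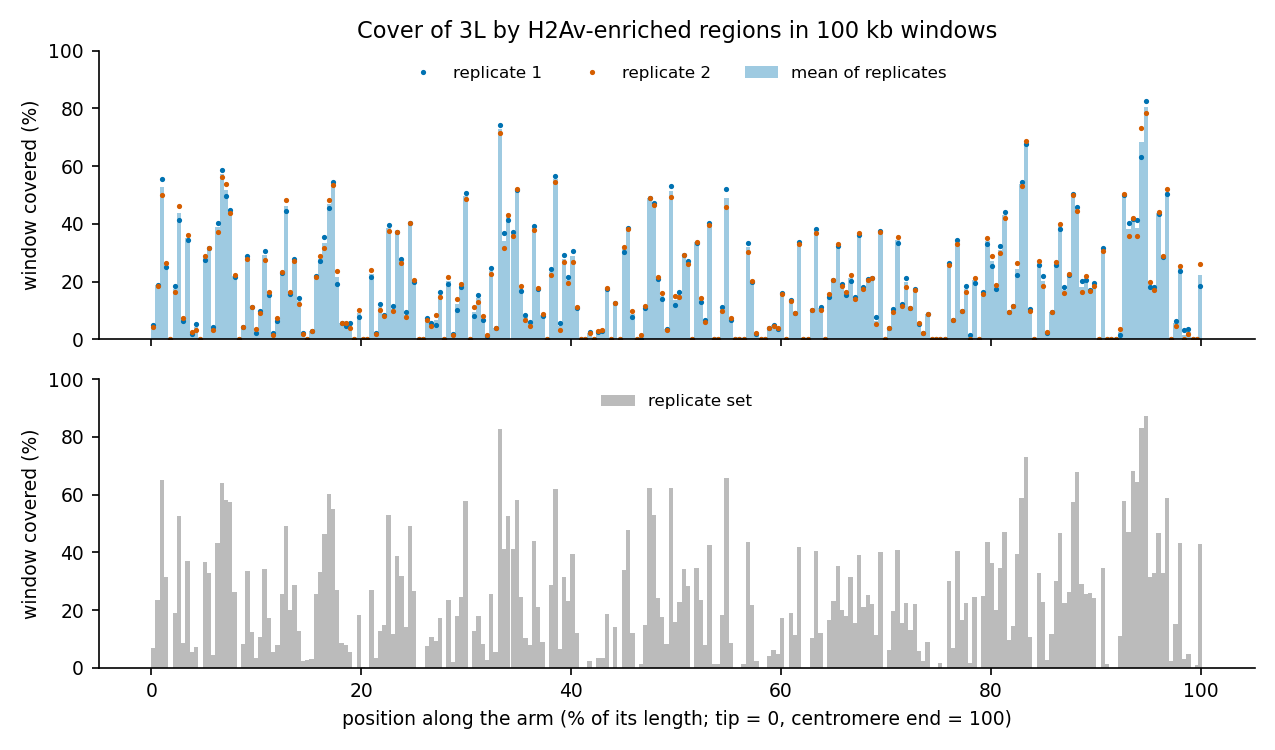
Percent of each 100 kb window of 3L covered by enriched regions (vertical) against position from the tip (0%) to the centromere end (100%) of the arm, for the 2 replicates (points) with their mean (bars) above and the replicate set below. Replicate points coincide in most windows, the highest window reaches a mean of 80.5%, and 43 windows are at 0% in both replicates.

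Dense windows held more regions, and also wider ones. Cover and the number of regions per window were correlated over the 246 windows, with a Spearman coefficient of 0.938 for replicate 1 and 0.948 for replicate 2. Cover and mean region width had 0.593 over the 200 windows of replicate 1 with a region centre and 0.630 over the 199 of replicate 2. Both quantities are parts of cover, so these correlations are descriptions. The number was correlated over all windows, empty ones included, and the mean width was not, so the sizes of the coefficients are not compared. The window from 8100001, for example, held 14 regions in each replicate with mean widths of 5302 and 5133 bp.

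The 10 most densely covered windows were each covered to more than 50% in both replicates. Measured from the tip, they lay at 1.02% to 38.5% and at 82.9% to 94.7% of the arm, with none between. That gap depends on stopping at 10 windows. The window from 12100001, at 49.5% of the arm, was covered to 53.3% and 49.2%. Its mean was 51.3%, against 52.0% for the last of the 10. The highest of the 10 was 23200001 to 23300000, near the centromere, at 82.6% in replicate 1 and 78.3% in replicate 2. Its neighbour from 23100001 was covered to 63.4% and 73.3%. A second pair, from 20300001 and 20400001, was covered to 54.4% and 67.6% in replicate 1 and to 53.0% and 68.7% in replicate 2. It held a run of regions no more than 1 kb apart that was the widest of the arm in every list, at 20411277 to 20462994 in replicate 1 (51718 bp, 8 regions) and at 20411888 to 20462647 in replicate 2 (50760 bp, 5 regions). The other dense windows began at 8100001, 8500001, 9400001, 4200001, 1600001 and 200001, with means between 52.0% and 72.9%. The megabase from 8000001 to 9000000 was covered to 31.6% and 30.7%. Only the megabase from 23000001 to 24000000 exceeded it, at 35.3% and 35.4%.

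The sparsest full megabase ran from 10000001 to 11000000, where 3.83% was covered in replicate 1 and 3.89% in replicate 2. It held 9 regions in each replicate, with median scores of 1.17 and 1.28. The next was 14000001 to 15000000, at 6.44% and 6.40%, with median scores of 1.17 and 1.31. The arm-wide medians were 1.18 in replicate 1 and 1.21 in replicate 2. In these 2 megabases regions were few, and their median scores lay near those of the whole arm.

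In 43 of the 246 windows (17.5%) neither replicate had a region, and 2 more were empty in replicate 1 alone and 2 more in replicate 2 alone. The 43 windows formed 30 stretches, of which 21 were single windows and the longest was 4 windows, from 18200001 to 18600000. The replicate set placed a region in 8 of them and covered no more than 2.83% of any. Empty windows were spread along the arm. The 10 equal parts of the arm each held between 1 and 8 of them, with the most, 8, in the part from 12271779 to 14726134 and 1 in the part from 19634847 to 22089201.

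Most regions had a close neighbour, while long stretches without any took up most of the arm. The median gap was 4090 bp in replicate 1 and 3854 bp in replicate 2, and 20.8% and 22.4% of gaps were below 1 kb. The nearest neighbour lay within 5 kb for 78.1% of the regions of replicate 1, 79.9% of those of replicate 2 and 81.5% of those of the replicate set. At the other end, 106 gaps of replicate 1 and 108 of replicate 2 were 50 kb or longer. They were 11.7% and 11.5% of the gaps and took up 13.9 and 14.0 Mb, or 56.7% and 57.0% of the arm. Regions with 50 kb or more free on both sides numbered 15 in replicate 1, 17 in replicate 2 and 16 in the replicate set.

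The longest stretches without a region matched between the replicates. The first began at 18108869 in replicate 1 and at 18108790 in replicate 2, ended at 18613439 and 18613383, and measured 504.6 kb in both. The second ran from 22289666 to 22698352 and from 22289181 to 22693109 (408.7 and 403.9 kb). The third ran from 13513651 to 13913578 and from 13513662 to 13914786 (399.9 and 401.1 kb). The stretch from 15158604 in replicate 1 and 15158776 in replicate 2 measured 331.2 and 330.9 kb. The remaining stretch among the 5 longest differed, at 11210165 to 11553775 in replicate 1 (343.6 kb), which 2 regions of replicate 2 overlapped by 3564 bp, and at 13045500 to 13377154 in replicate 2 (331.7 kb), which 3 regions of replicate 1 overlapped by 4916 bp.

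The replicate set broke some of these stretches with small members. Of the 106 stretches of 50 kb or more in replicate 1, 54 contained a whole member of the replicate set, and of the 108 in replicate 2, 56 did. The stretch from 18108869 met 4 members that covered 4046 bp of its 504571 bp. These counts include shared members across its edges, 18097752 to 18108942 and 18612924 to 18620844. That from 22289666 met 8 members that covered 12460 bp, again with shared members across its edges, 22287106 to 22291526 and 22695480 to 22700234. That from 15158776 in replicate 2 met a single member, which reached 53 bp into its start. The longest stretch without a member in the replicate set was 13519299 to 13894851 (375.6 kb), and 18108943 to 18452735 (343.8 kb) was next. Whether reads could be mapped throughout these stretches is unknown here.

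The 10 parts of the arm differed in cover, with the highest values in the 2 nearest the centromere. From the tip onward, cover was 21.7% ± 0.100, 17.4% ± 0.155, 14.4% ± 0.00524, 21.9% ± 0.583 and 15.0% ± 0.0608 in the distal 5 parts (SD, n = 2 each). In the other 5 it was 12.2% ± 0.296, 16.7% ± 0.123, 12.4% ± 0.0818, 25.0% ± 0.142 and 22.8% ± 0.0666 (SD, n = 2 each). The spread between replicates was small beside these differences. The part at the tip thus lay close to the fourth and the last, and cover did not rise steadily toward the centromere. With 2 replicates, an exact two-sided test of any paired difference cannot give a p below 0.5, so none was made here or below.

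The part next to the centromere, 22089202 to 24543557, differed from the other 9 in the score and match of its regions more than in its cover. The median score was 0.834 in replicate 1 and 0.814 in replicate 2, whereas medians of the other 9 parts lay between 1.12 and 1.38 (replicate 1) or 1.15 and 1.38 (replicate 2). In the replicate set this part was less set apart. Its median there was 0.550, and those of the other 9 ran from 0.624, in the part from 17180491 to 19634846, to 1.10. The neighbouring part, 19634847 to 22089201, had medians of 1.25 and 1.27 in the replicates, but these were not even along it. Its megabase from 21000001 to 22000000 had medians of 1.04 and 1.04, against 1.29 and 1.35 from 20000001 to 21000000. Away from the centromere, the megabase from 13000001 to 14000000 was also low, at 0.903 and 1.00. Lower scores in the part next to the centromere were not only those of narrow regions. Among regions of 3 to 10 kb, the median was 0.921 near the centromere against 1.41 elsewhere in replicate 1, and 1.05 against 1.47 in replicate 2. Among regions of 10 kb or more, it was 1.24 against 1.501 in replicate 1, over 10 and 58 regions, and 1.197 against 1.58 in replicate 2, over 13 and 57. Below 3 kb the medians lay closer, at 0.625 against 0.677 in replicate 1 and 0.641 against 0.669 in replicate 2.

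Members in this part were also less often found in both replicates. Of its 150 members, 75 (50.0%) overlapped both, against 661 of 939 (70.4%) on the rest of the arm, and 50 (33.3%) overlapped neither, against 181 (19.3%). Narrow members below 1302 bp, which no replicate lists on 3L, were 28 of the 150 and 88 of the 939. Between the replicates themselves, 87.5% of the regions of replicate 1 in this part were shared, against 92.7% elsewhere, and 89.6% of those of replicate 2, against 92.2%. The score and the listing of a region come from the same reads, so these values are not independent of each other. Copy number and mappability may differ with position on the arm and were not measured here, and their part in these values was not tested.

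**Figure D4:**
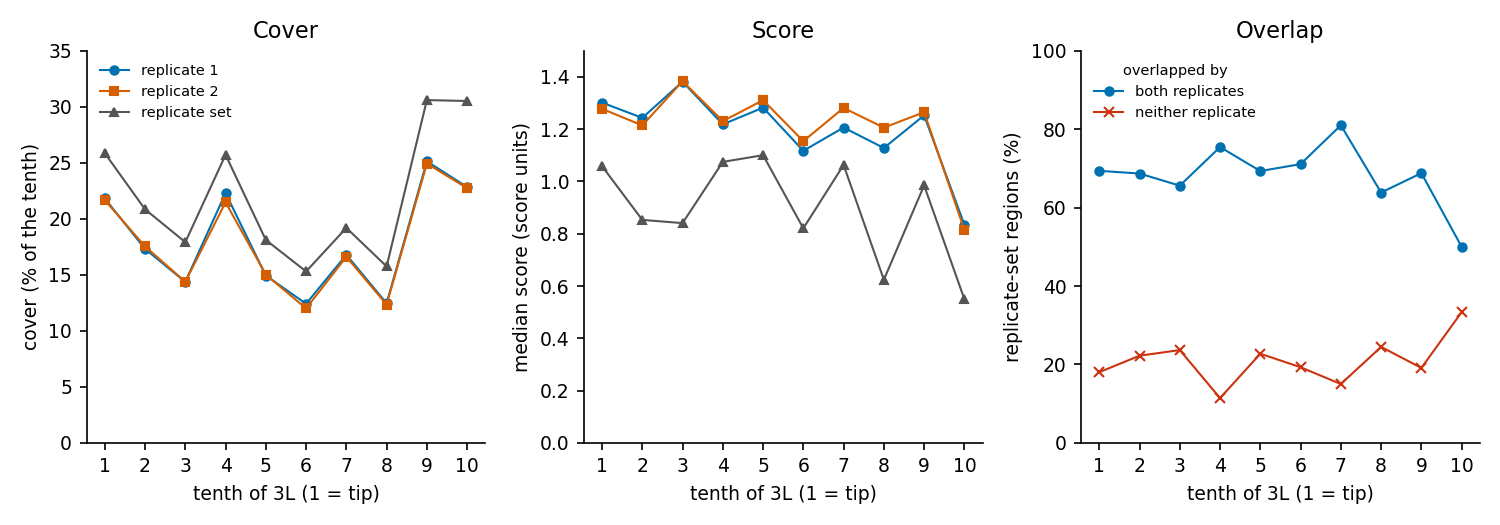
Cover (percent), median score (score units) and percent of replicate-set regions overlapped by both or neither replicate in 10 equal parts of 3L, from the tip (1) to the centromere end (10). The last part keeps a cover of 22.8% while its median score falls to 0.834 and 0.814 in the replicates and the percent found in both falls to 50.0%.

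The higher cover near the centromere was not kept when low-scored regions were left out. Relative to the rest of the arm, the cover of the last part was 1.30 times as high in replicate 1 and 1.31 times as high in replicate 2. With regions below the median score of their list left out, the ratio was 0.757, on the other side of 1. This value is not separate from the low scores given above, since a limit on the score removes more regions where scores are low. It also depended on where the boundary was set, at 1.45 for the proximal 20% and 0.759 for the proximal 1 Mb. Within the last part, every window from 22700001 to 23800000 was covered to at least 17.1% in both replicates. The next window, from 23800001, held no region in either, and from there to the end of the arm the highest full window reached 25.4% in a replicate.

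The scaffold 3LHet, which holds heterochromatic sequence of this arm, shared several of these features. Its regions had a median score of 0.820 in replicate 1 and 0.822 in replicate 2. Of its 163 replicate-set regions, 42.3% overlapped both replicates and 35.6% overlapped neither. Its cover was 18.6% and 17.6%, against 22.8% and 22.7% in the last part of 3L. The order of the scaffold relative to the end of 3L is not given in the lists, and its mappable length is unknown here.

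The highest-scored members in both replicates were single regions with closely matching edges. The first, 3L 19792004 to 19802140, was 10137 bp wide with a score of 2.31, and scored 2.30 in replicate 1 and 2.37 in replicate 2. It was followed by 1773094 to 1779092 (5999 bp), which scored 2.23 in the replicate set, 2.19 in replicate 1 and 2.32 in replicate 2. The third, 18854370 to 18867462 (13093 bp), scored 2.16, 2.13 and 2.22, and the fourth, 5125508 to 5141454 (15947 bp), scored 2.13, 2.10 and 2.19, in the same order of lists. The fifth, 7372632 to 7376760 (4129 bp), scored 2.11, 2.17 and 2.12. All 5 lay outside the part next to the centromere, and each met exactly 1 region in each replicate that held 93.4% to 99.8% of its length.

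The widest members were of 2 kinds. The widest, 16569602 to 16610546 (40945 bp), was 1 unbroken region in each replicate, of 40587 and 40586 bp, and its score of 1.98 was high. The other 4 were divided in the replicates and had scores from 1.13 to 1.37. They were 23226304 to 23266318 (40015 bp; 2 regions in replicate 1 and 3 in replicate 2) and 23515238 to 23550688 (35451 bp; 3 in each). The last 2 were 4251440 to 4285322 (33883 bp; 3 in each) and 23677048 to 23710396 (33349 bp; 2 in each). Of the 5 widest, 3 therefore lay between 23226304 and 23710396, near the centromere, and regions of the replicates held 90.9% to 99.1% of the length of each.

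The median width of members in both replicates was 4889 bp. Among the 3 named as nearest to it was 20375536 to 20380428, which was 4893 bp wide with a score of 1.23. It met regions of 4594 bp in replicate 1 and 4612 bp in replicate 2, with scores of 1.21 and 1.37. Another of nearly the same width, 20476968 to 20481852 (4885 bp), scored 1.12 and met regions of 4756 and 4609 bp. A member of equal width, 1811880 to 1816764, was weak at 0.487. In replicate 1 it met 1 region that held 63.3% of it, and in replicate 2 it met 2 regions that held 71.7%. The member nearest the tip, 50052 to 55284, was of this weak kind, with a score of 0.462 and 59.7% and 78.4% of its length held by the replicates. The member nearest the centromere, 24541354 to 24543557, was found in replicate 2 only.

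The 2 highest scores of the replicate set on 3L belonged to narrow members in neither replicate, 5298618 to 5299748 (1131 bp, score 3.14) and 21359252 to 21360270 (1019 bp, score 2.93). The next of that kind, 13518162 to 13519298 (1137 bp), scored 1.37. All 3 were narrower than any replicate region on the arm, and whether a limit on width kept them from the replicate lists was not tested. The score of the first occurred 3 times in the replicate-set list and that of the third 2 times. The highest score on 3L in replicate 2, 2.78, belonged to a similarly narrow region, 23493611 to 23494926 (1316 bp), and also occurred 3 times in its list. Replicate 1 gave a score of 1.44 to the overlapping region of 1757 bp. These scores were singled out after they were seen.

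Beside 3R, 2L and X, arm 3L stood at the low end in broad regions. Its cover was the lowest of these arms in every list but near theirs. Arm 2R was not compared. Cover was 18.3% ± 0.173 on 3R, 18.9% ± 0.209 on 2L and 18.4% ± 0.648 on X, against 18.0% ± 0.117 on 3L (SD, n = 2 each). The difference between 3L and 3R was -0.426 percentage points in replicate 1 and -0.347 in replicate 2. Regions of 10 kb or more held 22.9% ± 0.259 of the cover of 3L, 27.7% ± 0.979 of that of 3R, 33.4% ± 0.123 of that of 2L and 25.3% ± 0.777 of that of X (SD, n = 2 each). In the replicate set the value of 3L was again below those of 3R, 2L and X, at 31.8% against 34.9%, 39.2% and 33.6%. The widest region of 3L measured 40587 bp in replicate 1 and 40586 bp in replicate 2, against 37887 and 29798 bp on 3R, 37442 and 25874 bp on X and 52244 and 37012 bp on 2L. In the replicate set the widest region of 3L (40945 bp) was narrower than that of 3R (41675 bp) and of 2L (60381 bp) and wider than that of X (37471 bp). The median score was 1.19 ± 0.0237 on 3L, 1.25 ± 0.0454 on 3R, 1.14 ± 0.0573 on 2L and 1.33 ± 0.0293 on X (SD, n = 2 each). These differences were not tested, and none is called particular to 3L.

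**Figure D5:**
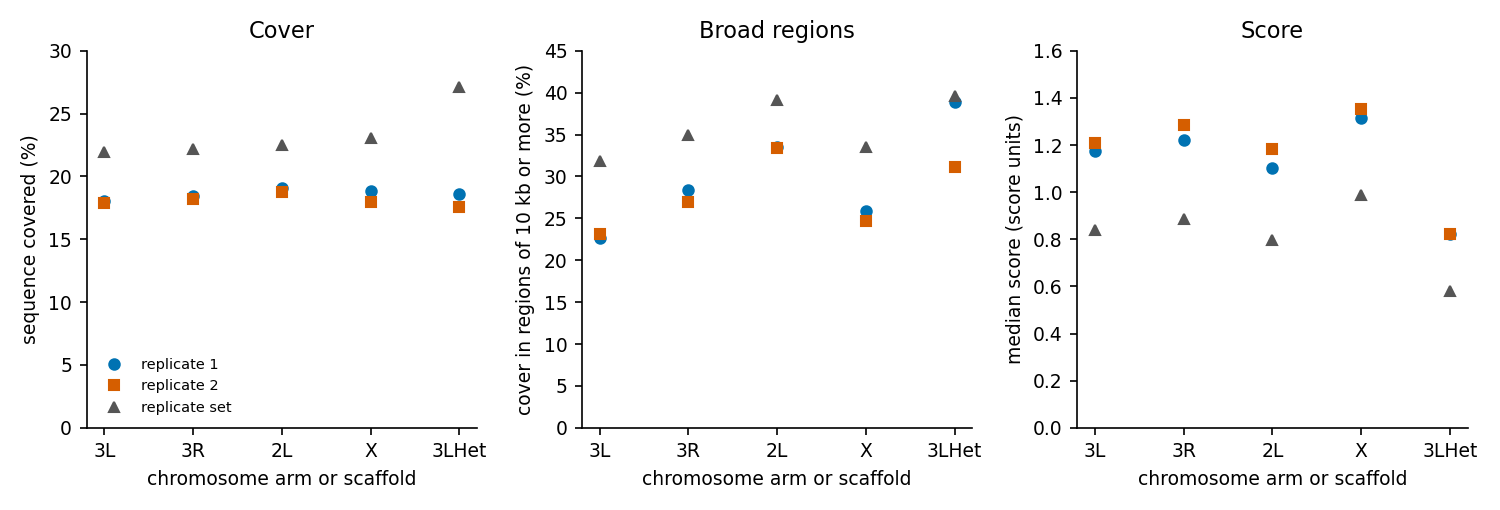
Percent of sequence covered, percent of the cover held by regions of 10 kb or more and median score (score units) for 3L, 3R, 2L, X and 3LHet, with 1 point per list. Cover is close on the 4 arms shown, at 18.0% to 18.9% on average in the replicates, and lowest of these arms on 3L. Broad regions hold least of the cover on 3L (22.9% on average) among those shown, and the median score is lowest on 3LHet.

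Empty windows were 18.3% of the windows of 3L in each replicate, against 19.3% and 20% on 3R, 22.5% and 22.1% on 2L and 14.7% and 14.2% on X. Windows covered by 50% or more were 6.504% and 5.28% of the windows of 3L, 5.71% and 6.07% on 3R, 9.96% and 9.52% on 2L and 6.67% and 5.78% on X. In empty windows 3L lay above X and below 3R and 2L in both replicates. In dense windows the values of 3L, 3R and X overlapped and lay below those of 2L.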

How the data were processed

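The values analysed were 3 lists of enriched regions made by the authors, 1 per ChIP replicate and 1 for the replicate set. Positions follow FlyBase release 5 and each region carries a deposited score, per the file headers and columns. The aligner Bowtie 0.12.7 appears in the submitters' processing notes. How regions were called, at which threshold, how scores were computed and whether inputs entered them is not given in the sources used here. Groups were taken from sample titles, since 1 description, that of ChIP replicate 2, says input. Whether the replicates were separate cultures is not stated, so their spread may be technical, and read depth is unknown.

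From the lists, rows of 3L were taken, the row marked as depletion was left out, and 1 replicate-set end past the arm was set to its length. Widths, gaps, overlap from 1 bp and cover in 100 kb windows from position 1 were computed with Python 3.11.15, numpy 2.4.6, pandas 2.3.3 and scipy 1.17.1; the interval calculations were checked on simulated lists. Scores describe regions and support no test; their scale is not stated, so differences in level between lists are descriptions of the deposited values. Named regions are the 5 highest-scored and 5 widest in both replicates, the 3 highest-scored in neither, the 3 whose width is nearest the median of members in both replicates, the 2 nearest the arm's ends, the 5 longest stretches per list and the 10 densest windows. The arm, lists and rules were chosen with earlier results of these data known.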

Additional observations from a re-analysis of the deposited data

How the results depend on the processing

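The mean over the replicates was compared with alternatives, and a value counts as moved when the shift exceeded the SD of the replicates (or, for the share in both replicates, its 95% interval; for counts, 1.5 times; any shift of a correlation). Of 35 alternatives that did not leave out a replicate, 28 moved. With regions below the median score of their list left out, 455.5 regions remained on average, with a median width of 5208.5 bp, a median gap of 12300 bp, a cover of 11.9%, 70 empty windows, a window correlation of 0.979, a proximal ratio of 0.757 and a difference from 3R of -1.15 points; 98.7% of members were in both replicates and 100% of replicate regions were shared. In the replicate-set list the gap was 3095 bp, the cover 22.0%, the proximal ratio 1.45 and the difference from 3R -0.171. Merging within 200 bp gave a width of 3788 bp and a gap of 4502.5 bp. A reciprocal overlap of 50% gave 59.8% of members in both replicates and 83.2% of replicate regions shared. The window correlation was 0.989, 0.995 and 0.988 for windows of 50, 200 and 500 kb and 0.995 after a shift of 50 kb. The proximal ratio was 1.45 for 20% of the arm, 0.759 for 1 Mb and 1.27 by regions per Mb. The difference in cover was -0.978 from 2L and -0.450 from X. The lower median score near the centromere, added after the data were seen, was -0.425 on average and -0.258 for the proximal 20%. The cause of these shifts was not tested.

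Leaving out 1 replicate gave 904 to 938 regions, widths of 3568 to 3709.5 bp, gaps of 3854 to 4090 bp, cover of 17.9% to 18.0%, proximal ratios of 1.30 to 1.31 and differences from 3R of -0.426 to -0.347. With 2 replicates these are the single values and say nothing about stability. Overlap with 1 replicate alone was 73.0% to 73.4% of members. No paired analysis was possible because the groups that share replicate numbers are ChIP and input, and values of the inputs were not analysed here; values of parts and arms are given within each replicate. Read depth is unknown, so a weak region missing from 1 list may still be enriched there.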

Other observations

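The replicate-set list marks 1 stretch of the genome as depleted, and it lies on 3L at 3417396 to 3419158 (1763 bp, score -0.0981). Replicate 1 lists the same place as enriched, at 3417371 to 3419185 (1815 bp), with a score of 0.0837. That score is the lowest of replicate 1 on 3L, and the next lowest is 0.308. All 1763 bp of the depleted stretch lie within the region of replicate 1. Replicate 2 has no region there, and its nearest regions end at 3380153 and start at 3459207, with scores of 1.49 and 1.58. The replicate set lists both of those neighbours as well, with scores of 1.499 and 1.54.

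The lowest score of replicate 2 on 3L, 0.0679, belongs to 640609 to 642084 (1476 bp), and the next lowest is 0.340. Replicate 1 lists an overlapping region with a score of 0.308, and the replicate set gives 0.154 to the member there, 639294 to 642162. These regions were chosen after their values were seen, and no test was made.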
